A study of Mus musculus with 3 samples.

Results

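The genes described here are the conjugation and carbonyl-reduction enzymes that make up 5 families in the mouse larynx: the soluble glutathione S-transferases (symbols beginning Gsta, Gstm, Gsto, Gstp, Gstt, Gstk and Gstz), the membrane-bound glutathione S-transferases (Mgst), the UDP-glucuronosyltransferases of families 1 and 2 (Ugt1a, Ugt2a and Ugt2b), the cytosolic sulfotransferases (Sult) and the aldo-keto reductases of family 1 (Akr1a to Akr1e). They were chosen by symbol alone, which gave 81 of the 33696 genes counted. The 81 comprised 23 soluble and 3 membrane-bound glutathione S-transferases, 19 UDP-glucuronosyltransferases, 21 sulfotransferases and 15 aldo-keto reductases.

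Conjugation makes a reactive or fat-soluble compound easier to excrete by attaching glutathione, glucuronic acid or sulfate to it, and aldo-keto reductases turn aldehydes and ketones into alcohols that can then be conjugated. Several of these families hold clusters of paralogs that arose by tandem gene duplication and act on different substrates, from inhaled chemicals and lipid aldehydes to steroids, catecholamines and prostaglandins. In the airway such enzymes are best known from secretory cells, where they act together with cytochrome P450 enzymes such as Cyp2f2.

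The data were single-cell 3′ end counts from 3 libraries of tdTomato-positive cells sorted from larynges of Lrig1CreERT2/+; ROSA26CAG−LSL−tdTomato/+ mice, which were given tamoxifen on 2 consecutive days and collected 1 day after recombination. Each library was a pool of 10 larynges (5 males and 5 females), the Lrig1CreERT2/+ line being kept on a C57BL/6 J background, and all 3 belonged to 1 condition, so no treatment or genotype was compared. Every animal carried the Cre allele in place of 1 copy of Lrig1 and had received tamoxifen, the Cre marks cells that expressed Lrig1 at the time, and wild-type and ROSA26CAG−LSL−tdTomato/+ animals served only to set the sort gates. The comparisons are therefore between cell classes of the same pools. Ages were not given in the sources used here.

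After quality limits and doublet removal, 13222, 7201 and 24119 cells remained in libraries 1, 2 and 3, with median depths of 10554.5, 14025 and 10740 UMIs (unique molecular identifiers, each standing for 1 captured molecule). Cells were put into classes by fixed gates on UMIs of marker genes, and the counts of a class were summed within each library. Nkx2-1 was a gate gene of several classes. Airway basal cells had to hold Nkx2-1 and no Tmprss11a, and squamous basal cells Tmprss11a and no Nkx2-1. Differences between classes are thus between cells chosen in part by their gate genes. Levels are counts per 1000000 UMIs of the class sum (CPM). They come from 3′ ends and are not scaled by gene length. A class entered with at least 20 cells in a library: airway basal cells (870, 417 and 2572 in the 3 libraries), airway secretory cells (160, 42 and 113), ciliated cells (347, 217 and 384), luminal cells (68, 39 and 112), squamous basal cells (885, 735 and 3467), fibroblasts (1094, 221 and 1204), muscle satellite cells (618, 614 and 920) and endothelial cells (392, 29 and 30). Macrophages (67 and 21 cells in libraries 1 and 2) and pericytes or smooth muscle cells (59 in library 1) also entered, and count among the classes where a peak level over all classes is given, but are not plotted. The gate meant for squamous suprabasal cells held 27, 8 and 57 cells, so library 2 did not enter and n = 2 for that class. Most cells of each library (8633, 4851 and 15223) met no gate. Libraries shared between 23 and 106 cell barcodes.

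Markers that were not used in the gates mostly followed the class names. Dnah9, a ciliary dynein, was at 788 to 1039 CPM in ciliated cells and at most 3.32 CPM in every other epithelial class, and Lum, a matrix proteoglycan, was at 661 to 939 CPM in fibroblasts. In muscle satellite cells Lum stood at 1.02% to 1.89% of its fibroblast level, but Dcn, of the same list, at 6.12% to 25.4%. The 4 ciliated markers summed to 285.1 to 303.2 CPM in the suprabasal gate and 163.1 to 287.5 CPM in luminal cells. The suprabasal gate went partly with and partly against its name. The summed squamous list was at 1988 and 2344 CPM there against 909.7 to 1420.1 CPM in squamous basal and 199 to 270.4 CPM in luminal cells. Of its 5 markers 2 (Tmprss11b and Krt6a) were above every squamous basal library, while Lgals7, Dsg3 and Serpinb5 were not. Krt6a made up most of the sum. The summed suprabasal list was at 610.1 and 795 CPM against 394 to 456 CPM in squamous basal cells, with 2 of its 4 markers above every squamous basal library. Tmprss11b was at 171 and 159 CPM against 55.7 to 69.5 CPM. Krt6a, a keratin of stratified epithelia, reached 1109 and 1469 CPM there, above 103 to 273 CPM in squamous basal cells, yet Dapl1 (96.2 and 90.6 CPM) and Lgals7 (264 and 197 CPM) were below the squamous basal cells, and Cyp2f2 stood at 10872 and 10399.5 CPM, above 8078 to 9757 CPM in airway secretory cells. Squamous basal cells themselves held Cyp2f2 at 35.2% to 40.6% of the airway secretory level, and airway basal cells at 79.4% to 95.3%. The summed airway list was at 11302 to 12049 CPM in the suprabasal gate and 3563 to 3876 CPM in squamous basal cells. Of the 6 airway markers 3 (Cyp2f2, Selenbp1 and Aldh1a7) were above every squamous basal library, while Cldn10 had no UMI, and Selenbp1 (980 and 725 CPM) and Aldh1a7 (14.9 and 14.6 CPM) were below the airway secretory levels of 2590.5 to 2952 and 126 to 170 CPM. All 5 markers of the luminal list were also higher there than in any squamous basal library, with a summed level of 2090.4 and 2248 CPM against 450.1 to 461 CPM in squamous basal and 1517 to 2245 CPM in luminal cells. Among them Elf3 stood at 514 and 529 CPM and Krt7 at 618 and 788 CPM. Of the 4 secretory markers only Ltf was above every squamous basal library, at 1530.1 and 2006 CPM against 23.9 to 81.2 CPM, while Bpifa1 was lower (414 and 489.5 against 856 to 1399 CPM) and Scgb3a1 and Muc5b (at most 1.66 CPM) overlapped. These cells are called Krt13-high cells below, after a gene of their gate, which also needed Krt4 and left out cells with Trp63 or Nkx2-1. Without the limit on Trp63 the gate held 214, 104 and 435 cells. The class is therefore a small part of the cells high in Krt13, and its levels differ from those of the wider gate given below. The luminal gate, set on Muc4 and Krt8, held cells with more Muc5b (994 to 1501 CPM) than the airway secretory gate (328 to 367 CPM) and more Ltf, but less Bpifa1 (13977 to 23794 against 144676 to 159355 CPM) and less Scgb3a1. The 4 secretory markers summed to 39228 to 50363 CPM in luminal and 167746 to 188036 CPM in airway secretory cells. Bpifa1 alone took 14.5% to 15.9% of all UMIs in airway secretory cells, which lowers the CPM of every other gene there. The fitted fold changes use TMM normalisation, which allows for this in part.

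A run of 3 neighbouring sulfotransferase genes on chromosome 5 showed how far paralogs can part in level between classes. In the GRCm39 assembly Sult1b1 (87661191 to 87686072), Sult1d1 (87702504 to 87716933) and Sult1e1 (87723828 to 87739461) lie on the minus strand next to one another. Sult1b1 was highest in Krt13-high and luminal cells, Sult1d1 in airway secretory, ciliated and airway basal cells, and Sult1e1 in fibroblasts. Their promoters are shown because the neighbours differ so widely in level, and that of Gsta3 because it is 1 of only 3 members with an antioxidant response element core. Each runs from 250 bases before to 30 bases after the start of the Ensembl canonical transcript (GENCODE annotation of GRCm39), 5′ to 3′ on the strand of the gene. Capitals mark the core letters TGACNNNGC of the antioxidant response element, GCGTG of the xenobiotic response element or CTCAAG of the NKX2-1 site, read on either strand.
Sult1b1, chr5:87682976-87683255, minus strand: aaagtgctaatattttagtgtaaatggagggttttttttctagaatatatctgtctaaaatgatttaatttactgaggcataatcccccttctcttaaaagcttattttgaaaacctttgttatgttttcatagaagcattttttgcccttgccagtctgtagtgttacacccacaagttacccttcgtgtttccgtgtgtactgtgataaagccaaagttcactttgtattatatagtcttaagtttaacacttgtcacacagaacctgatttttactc
Sult1d1, chr5:87716904-87717183, minus strand: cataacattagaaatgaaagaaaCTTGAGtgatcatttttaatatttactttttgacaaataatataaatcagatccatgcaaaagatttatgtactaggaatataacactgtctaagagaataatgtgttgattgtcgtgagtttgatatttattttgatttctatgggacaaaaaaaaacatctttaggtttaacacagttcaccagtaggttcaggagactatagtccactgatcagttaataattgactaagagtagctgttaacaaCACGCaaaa
Sult1e1, chr5:87739432-87739711, minus strand: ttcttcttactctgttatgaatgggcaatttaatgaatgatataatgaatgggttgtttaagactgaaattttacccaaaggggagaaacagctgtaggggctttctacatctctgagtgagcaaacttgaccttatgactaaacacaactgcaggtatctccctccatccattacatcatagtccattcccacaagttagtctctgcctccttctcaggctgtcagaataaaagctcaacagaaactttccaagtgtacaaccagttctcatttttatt
Gsta3, chr1:21310556-21310835, plus strand: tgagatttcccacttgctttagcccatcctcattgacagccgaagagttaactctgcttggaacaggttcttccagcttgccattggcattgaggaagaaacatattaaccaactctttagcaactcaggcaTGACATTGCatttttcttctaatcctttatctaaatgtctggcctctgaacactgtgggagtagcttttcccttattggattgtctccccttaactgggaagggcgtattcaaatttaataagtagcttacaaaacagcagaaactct

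The start of the canonical Sult1b1 transcript lies inside the gene span above and not at its end. The Sult1d1 promoter held 1 NKX2-1 core, at base −227, and 1 xenobiotic response element core, at base +21 after the start, each printed as its reverse complement. Neither Sult1b1 nor Sult1e1 held any of the 3 motifs, and Gsta3 held the antioxidant response element core at base −118. Promoters of 300 bases (250 before to 50 after the start) were found for all 81 members. The antioxidant response element core lay in 3 of them (3.70%) against 12.5% of all 21770 promoters, the xenobiotic response element core in 16 (19.8%) against 37.0%, and the NKX2-1 core in 12 (14.8%) against 16.6%. These are matches of letters and say nothing of binding.

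Of the 81 members, 24 reached a mean of at least 50 CPM in some class, 14 peaked between 10 and 50 CPM, 10 between 1 and 10 CPM, and 33 stayed under 1 CPM everywhere, 7 of those with no UMI at all. The families differed in this. All 3 membrane-bound and 10 of 23 soluble glutathione S-transferases reached 50 CPM, as did 7 of 15 aldo-keto reductases and 4 of 21 sulfotransferases, but none of the 19 UDP-glucuronosyltransferases did, and 15 of those stayed under 1 CPM. The 9 Ugt1a genes share their last exons, so that 3′ reads can hardly tell them apart and each Ugt1a value is uncertain. The same holds in part for Gstp1 and Gstp2, which share 66.7% and 67.4% of the short stretches in their last 500 bases.

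Summed over the 81 members, the level was highest in Krt13-high cells at 17675 ± 2215 CPM (SD, n = 2) and in luminal cells at 10029 ± 555 CPM (n = 3). Airway secretory cells followed at 8038 ± 244 CPM, airway basal cells at 6013 ± 387, squamous basal cells at 4879 ± 525 and ciliated cells at 4591 ± 396 CPM (n = 3 each). The last pair differed by less than their spread. Fibroblasts (2136 ± 73.4 CPM), satellite cells (1511 ± 234 CPM) and endothelial cells (1263 ± 18.6 CPM) lay below every epithelial class. The leading member in both of the highest classes was Gsto1, which made up 57.2% and 57.4% of the sum in Krt13-high cells, 48.1% to 54.3% in luminal cells and 29.4% to 30.4% in squamous basal cells. In airway basal cells, ciliated cells and fibroblasts the leading member was Gstm1.

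**Figure D1:**
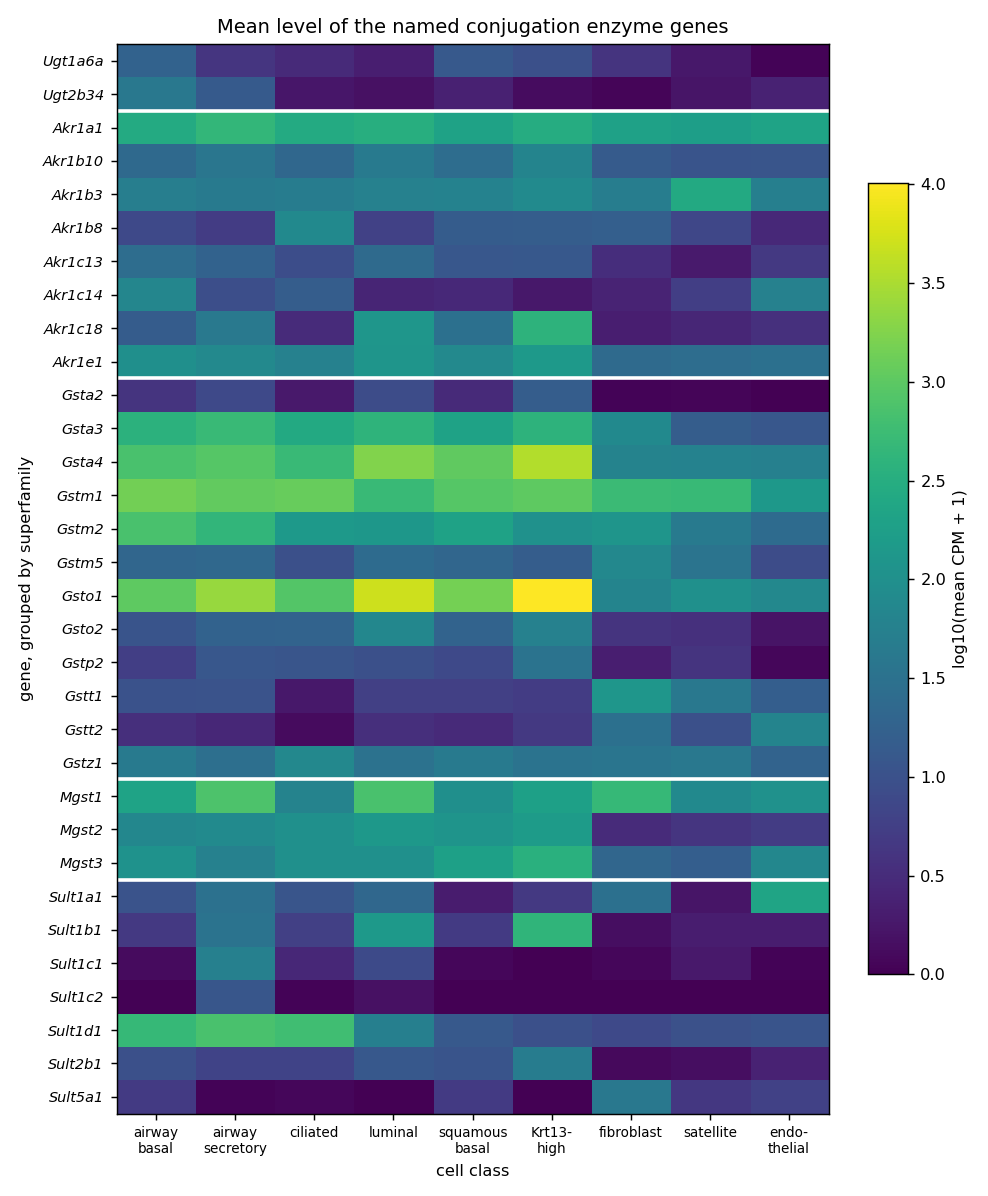
Mean level of the 32 named genes (rows, grouped by superfamily) in 9 cell classes (columns), as log10 of mean CPM + 1 over the libraries of each class. Rows can be read across classes; CPM are not scaled by gene length. Gsto1 is brightest in Krt13-high and luminal cells, Sult1d1 in the airway classes and Gstt1 in fibroblasts.

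The first comparison asked which paralogs part the basal cells of the airway from those of the squamous epithelium. Airway basal cells carried more Sult1d1, which sulfonates catecholamines, more of the glucuronosyltransferase gene Ugt2b34, more Akr1c14, a hydroxysteroid dehydrogenase, and more of the mu class gene Gstm2. Squamous basal cells were called higher in Mgst2 and, less firmly, in Akr1c18, Akr1b8, Mgst3 and Gsta4, whose calls each ended under several other settings given below. In all, 16 of the 81 members were higher in airway basal cells and 5 lower at an adjusted p under 0.05 (edgeR, adjusted over all genes), while 48 had enough counts to be tested. Over all 18060 genes tested, 8.91% were higher and 7.33% lower. With the library as a block 17 members were higher and 8 lower, against 11.6% and 10.8% of all genes. The median log2 fold change was 0.28 over the tested members and −0.02 over all genes.

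Sult1d1 was at 558, 402 and 484 CPM in airway basal cells of libraries 1, 2 and 3, and at 13.5, 5.95 and 16.9 CPM in squamous basal cells. The groups were far apart, with a log2 fold change of 5.27 ± 0.41 (SE; adjusted p = 4.6e-10). Squamous basal cells held 1.48% to 3.49% of the airway basal level, and fibroblasts held 1.10% to 1.58%. After thinning every cell to 5000 UMIs, 40.9%, 32.9% and 43.5% of airway basal cells had a Sult1d1 UMI, and 3.76%, 3.32% and 2.49% of fibroblasts did.

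Ugt2b34, the best counted UDP-glucuronosyltransferase, stood at 44.2, 21.5 and 51.5 CPM in airway basal and 1.34, 0.712 and 1.92 CPM in squamous basal cells (log2 fold change 4.76 ± 0.37, adjusted p = 7.0e-10). Sult1a1, which sulfonates simple phenols, was lower in level but parted the classes alike, at 10.4, 12.7 and 5.77 CPM against 1.41, 0.906 and 0.744 CPM (3.25 ± 0.41). No library overlapped for either gene.

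Among the glutathione S-transferases, Gstm2 of the mu class was at 717, 691 and 763 CPM in airway basal against 202, 182 and 217 CPM in squamous basal cells (1.82 ± 0.18, adjusted p = 1.3e-08). Gstm1, of the same cluster on chromosome 3, differed by 0.65 ± 0.17 (adjusted p = 0.0067), and its 3 airway values of 1227, 1395 and 1702 CPM each exceeded those of the squamous basal cells at 769.9, 831 and 1113 CPM. Mgst1, a microsomal transferase, was also higher (1.08 ± 0.19), as was Gsta3 of the alpha class (0.88 ± 0.23). Gsta4, which conjugates the lipid aldehyde 4-hydroxynonenal, was lower at 697, 689 and 791 CPM against 1005, 954 and 1199.5 CPM (−0.56 ± 0.19, adjusted p = 0.042).

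The aldo-keto reductase genes of the Akr1c cluster on chromosome 13 did not move together. Akr1c14 was at 86.9, 99.5 and 13.8 CPM in airway basal cells and at 3.19, 2.07 and 0.467 CPM in squamous basal cells (5.30 ± 0.77, adjusted p = 9.4e-06), and Akr1c13 was higher by 1.21 ± 0.26. Akr1c18, known as 20-alpha-hydroxysteroid dehydrogenase, was lower in airway basal cells at 10.0, 11.3 and 19.7 CPM against 28.9, 28.1 and 29.3 CPM (−1.07 ± 0.32, adjusted p = 0.018). Gsto1 (−0.56 ± 0.21, adjusted p = 0.076), Gsto2 (−0.96 ± 0.49, 0.23) and Akr1e1 (0.36 ± 0.15, 0.13) passed only with the library as a block (0.024, 0.0094 and 0.038). Library 3 held much less Akr1c14 than the other libraries in both classes. The log2 fold change without library 3 was 5.11.

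Fewest members passed without library 1, at 9 in place of 21. Gsta4, Mgst2, Mgst3, Akr1c18, Akr1b8, Akr1a1, Gsta3 and Gstt1 were among those lost, with log2 fold changes of −0.57, −0.68, −0.78, −0.90, −1.09, 0.43, 0.83 and 0.86. With all libraries these values were −0.56, −0.74, −0.81, −1.07, −1.03, 0.45, 0.88 and 0.92. Leaving out library 2 ended the calls of Akr1a1 (0.45), Akr1b8 (−0.97), Akr1c18 (−0.97), Gstm1 (0.62) and Mgst3 (−0.77), and leaving out library 3 that of Gsta4 (−0.52). With cells thinned to 5000 UMIs the calls of Akr1c18 (−0.31, adjusted p = 0.71), Akr1b8 (−0.74, 0.44), Gsta4 (−0.46, 0.28), Gstt1 (0.66, 0.23), Mgst3 (−0.65, 0.069) and Akr1a1 (0.40, 0.063) ended. Stricter gates ended those of Akr1c18 (−0.70, adjusted p = 0.15) and Gsta4 (−0.49, 0.10), and DESeq2 those of Akr1c18 (−1.06, 0.092), Mgst3 (−0.77, 0.072) and Akr1b8 (−0.99, 0.067). Akr1b8 was also lost among cells of 8000 to 25000 UMIs, Mgst3 without doublet removal, and Gsta4 with RLE and without doublet removal.

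**Figure D2:**
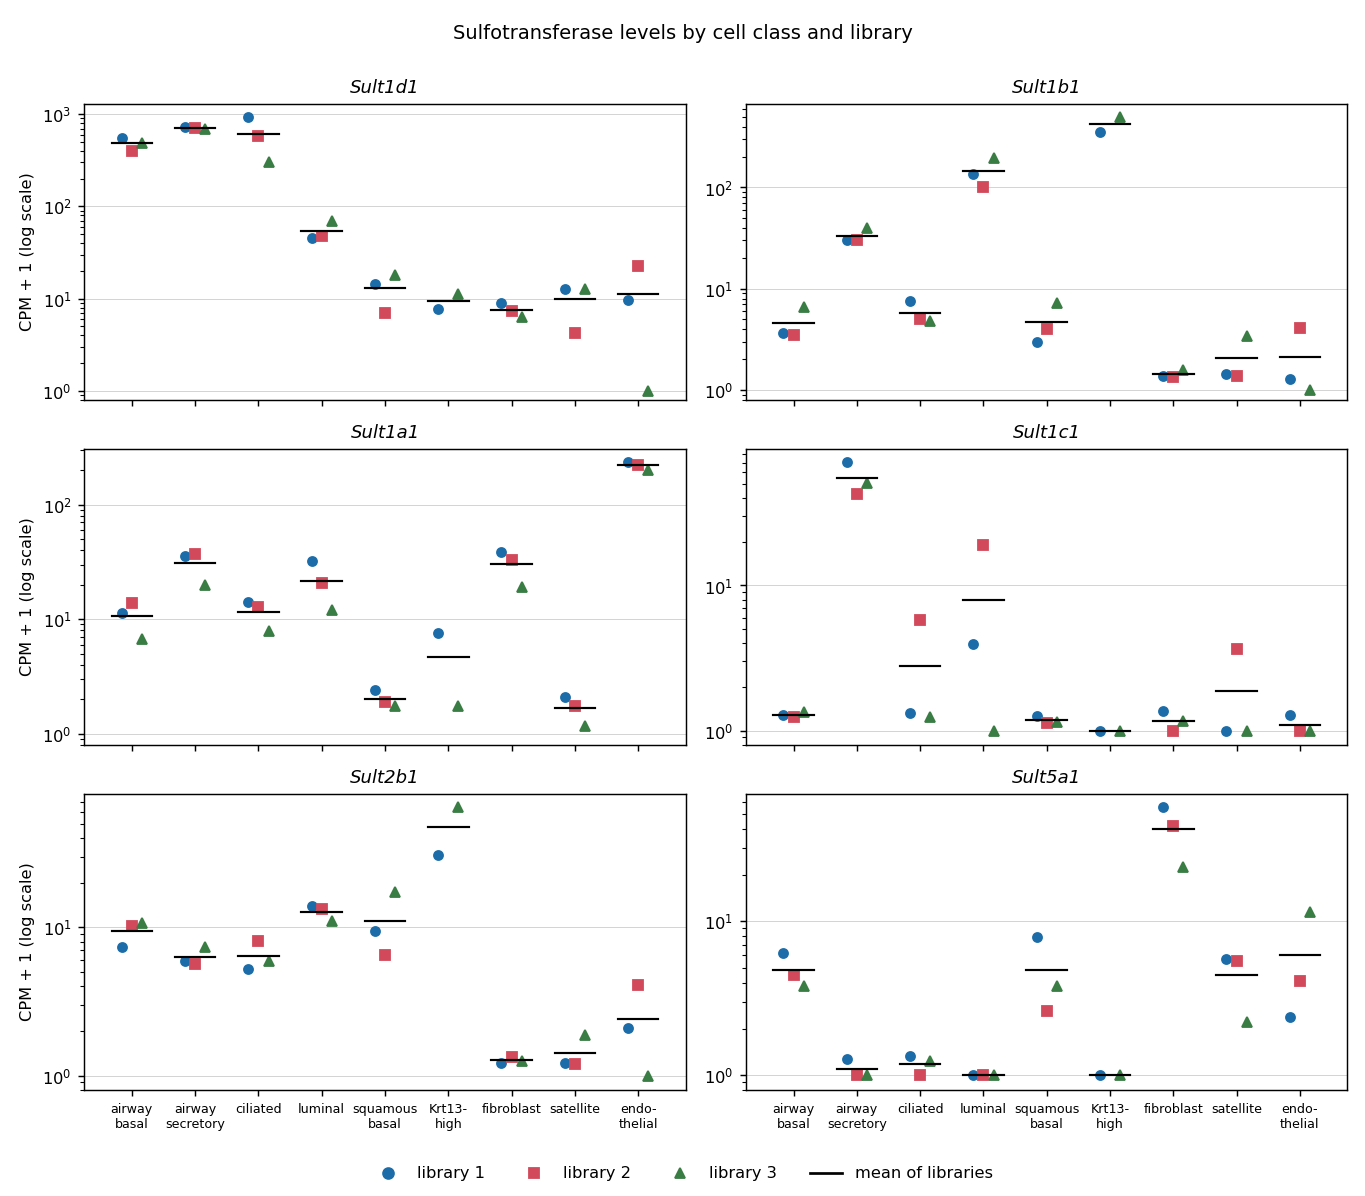
CPM + 1 on a log axis of 6 sulfotransferase genes in 9 cell classes. Points are libraries (2 for Krt13-high cells) and lines their mean. Sult1d1 is at 299.9 CPM or more in every airway basal, secretory and ciliated library, Sult1b1 peaks in Krt13-high cells, Sult1a1 in endothelial cells, Sult1c1 in airway secretory cells and Sult5a1 in fibroblasts.

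The next comparison set airway secretory cells against airway basal cells. Secretory cells carried the sulfotransferase genes Sult1c1 and Sult1c2, which peaked there among all classes, and more Sult1b1, Sult1a1, Mgst1, Gsto1 and Akr1c18. Basal cells carried more Akr1c14, Ugt2b34 and Ugt1a6a. Of the 81 members 15 were higher and 7 lower in secretory cells, with 48 tested, against 8.53% higher and 14.4% lower over all genes. With the library as a block the counts were 19 and 8, against 10.1% and 18.7%. With RLE in place of TMM normalisation 19 members were higher and 5 lower, and over all genes 1540 higher and 2604 lower became 2283 and 1687. The median of all genes was −0.22 with TMM and −0.03 with RLE, so log2 values of this comparison are given less the TMM median, while each p tests the fitted value before the median was taken off. The tested members' median before this correction was 0.36, or 0.43 with genes at 0 UMIs in a class placed at their bound.

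Sult1c1 was at 69.6, 41.5 and 49.8 CPM in secretory cells and at most 0.35 CPM in airway basal cells (7.87 ± 0.88). Sult1c2, also on chromosome 17, had 72 UMIs in secretory cells and 3 in the far larger sum of airway basal cells, a ratio of 213 with a 95% interval of 70.1 to 1058 that covers counting error only. Neither gene passed 0.35 CPM in airway basal cells of any library.

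Sult1b1 was at 29.2, 29.5 and 38.5 CPM in secretory against 2.63, 2.52 and 5.63 CPM in airway basal cells (3.52 ± 0.38), and Mgst1 at 623, 747 and 919 against 229.9, 186 and 223 CPM (2.30 ± 0.20). Gsto1, which reduces dehydroascorbate and methylated arsenic, was at 2815, 2434 and 2038 against 937, 983 and 1117 CPM (1.74 ± 0.22). All 3 genes were higher in each secretory library than in any basal library.

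Sult1d1 did not follow them. Its secretory levels of 723, 709 and 698 CPM exceeded those of airway basal cells, but the difference of 1.03 ± 0.34, fitted as 0.80, did not pass (adjusted p = 0.096) unless the library was a block (adjusted p = 0.028). The same was true of Gsto2, fitted as 1.01 ± 0.59 (adjusted p = 0.24 without and 0.019 with the block), Mgst2, fitted as 0.45 ± 0.18 (0.077 and 0.032), and Mgst3, fitted as −0.68 ± 0.31 (0.11 and 0.023). Akr1c14 fell from basal to secretory cells by 2.55 ± 0.80 and Ugt2b34 by 1.16 ± 0.36. With cells thinned to 5000 UMIs, which left 2 secretory libraries (53 and 64 cells), the fitted values of Ugt2b34 (0.17, adjusted p = 0.95), Akr1c14 (−1.16, 0.79) and Ugt1a6a (−0.63, 0.80) no longer passed. DESeq2 also ended the call of Ugt2b34 (fitted as −1.19 against −1.39 in the main fit, adjusted p = 0.063). Ugt1a6a, a phenol glucuronosyltransferase, was at 17.9, 15.4 and 18.4 CPM in basal and 1.93, 2.77 and 4.93 CPM in secretory cells (−2.02 ± 0.36), with the shared exons as a limit.

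Without library 1, 10 members passed in place of 22. The fitted log2 fold changes, before the median was taken off, of named genes whose calls ended were then −2.98 for Akr1c14, 1.08 for Gsta2, 0.92 for Gsta3, 0.66 for Gsta4, −0.41 for Gstm2, 0.37 for Gstp2, −7.77 for Sult5a1, −1.67 for Ugt1a6a and −1.35 for Ugt2b34. Leaving out library 2 ended the calls of Akr1c14 (−2.53), Gsta4 (0.51), Gstm2 (−0.50) and Sult5a1 (−4.10). Leaving out library 3 ended those of Gstm2 (−0.37) and Ugt2b34 (−0.85).

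Krt13-high cells were then set against squamous basal cells. Here the sulfotransferase Sult1b1, the omega class gene Gsto1, the alpha class genes Gsta4 and Gsta2, the steroid reductase Akr1c18 and the cholesterol sulfotransferase Sult2b1 were all higher, and Gstm2 was the only member called lower. All 5 luminal markers, 3 of the 6 airway markers (Cyp2f2, Selenbp1 and Aldh1a7) and, of the 4 secretory markers, Ltf alone were higher with them. Bpifa1 was lower, as given above. The part of these markers' cell types in the differences was not tested. The counts were 15 higher and 1 lower of 81, with 48 tested, against 6.26% higher and 14.4% lower over all genes. With the library as a block 18 members were higher and 1 lower, against 7.13% and 17.3%. With RLE, 18 members were higher and 1 lower, while the split over all genes moved from 1131 higher and 2605 lower to 1863 and 1440. The median of all genes was −0.48 with TMM and −0.23 with RLE, and values below are again less the TMM median, with p-values of the fitted value before that. The members' median before that was 0.56, or 0.71 with genes at 0 UMIs at their bound.

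Sult1b1 was at 348 and 492 CPM in Krt13-high cells of libraries 1 and 3 and at 1.98, 2.98 and 6.22 CPM in squamous basal cells (7.14 ± 0.39, adjusted p = 2.8e-12). Gsto1 reached 9211 and 11053 CPM against 1333, 1405 and 1661 CPM (3.21 ± 0.24, adjusted p = 3.1e-09), and Gsta4 3204 and 3869 against 1005, 954 and 1199.5 CPM (2.17 ± 0.21). Akr1c18 stood at 322 and 449 against 28.9, 28.1 and 29.3 CPM (4.17 ± 0.36). None of these overlapped between the classes.

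Sult2b1 was at 29.8 and 63.6 CPM against 8.37, 5.50 and 16.2 CPM (2.69 ± 0.36), and Gsta2 at 14.9 and 13.9 against 1.85, 2.46 and 1.84 CPM (3.22 ± 0.49). Mgst1 rose by 1.35 ± 0.22, Akr1b10 by 1.65 ± 0.17 and Akr1e1 by 1.33 ± 0.18. With cells thinned to 5000 UMIs only library 3 kept at least 20 Krt13-high cells (32), and the fitted values from that 1 library of Mgst1 (−1.94, adjusted p = 0.11), Akr1b10 (0.46, 0.89), Akr1e1 (1.10, 0.12) and Gsta2 (3.22, 0.22) did not pass. Stricter gates ended 3 calls, given here as fitted and not less the median. They were Mgst1 (0.53 against 0.87 in the main fit, adjusted p = 0.27), Gstm2 (−0.36 against −0.94, 0.34) and Gstp2 (0.92 against 2.18, 0.61). A fit of the compared classes alone ended that of Gstm2 (fitted as −0.71, adjusted p = 0.056). Gsto2, which adjoins Gsto1 on chromosome 19, was at 89.5 and 22.6 CPM against 12.8, 32.4 and 9.18 CPM. Its ranges overlapped and its difference, fitted as 1.41 ± 0.63, passed only with the library as a block (adjusted p = 0.12 without and 0.00031 with it), as did that of Mgst3, fitted as 0.79 ± 0.32 (0.083 and 0.049).

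A wider gate without the limit on Trp63 held 214, 104 and 435 cells, so that library 2 could enter. It was added after the data were seen. Sult1b1 was then at 60.8, 68.9 and 129 CPM, Gsto1 at 4111, 4688 and 5774 CPM and Akr1c18 at 69.8, 75.4 and 146 CPM, above squamous basal cells in each library and below both Krt13-high libraries. The fitted log2 fold changes, not less the median, went from 6.66 to 4.48 for Sult1b1, from 2.72 to 1.75 for Gsto1 and from 3.69 to 1.80 for Akr1c18, all still past the threshold, as was Akr1b10, which went from 1.17 to 0.40. The calls of Akr1a1 (0.36), Akr1e1 (0.27), Gsta3 (0.38), Gstp2 (1.21) and Mgst1 (0.25) were lost. With the narrow gate, leaving out library 1 or 3 left Krt13-high cells with a single library, whose spread is taken from the other classes. Fitted values are given for these. Leaving out library 1 ended the calls of Akr1a1 (0.71), Gsta3 (1.00), Gstm2 (−0.44), Gstp2 (2.44) and Mgst1 (0.86). Leaving out library 3 ended those of Akr1a1 (0.48), Akr1e1 (0.75) and Gsta3 (0.82).

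**Figure D3:**
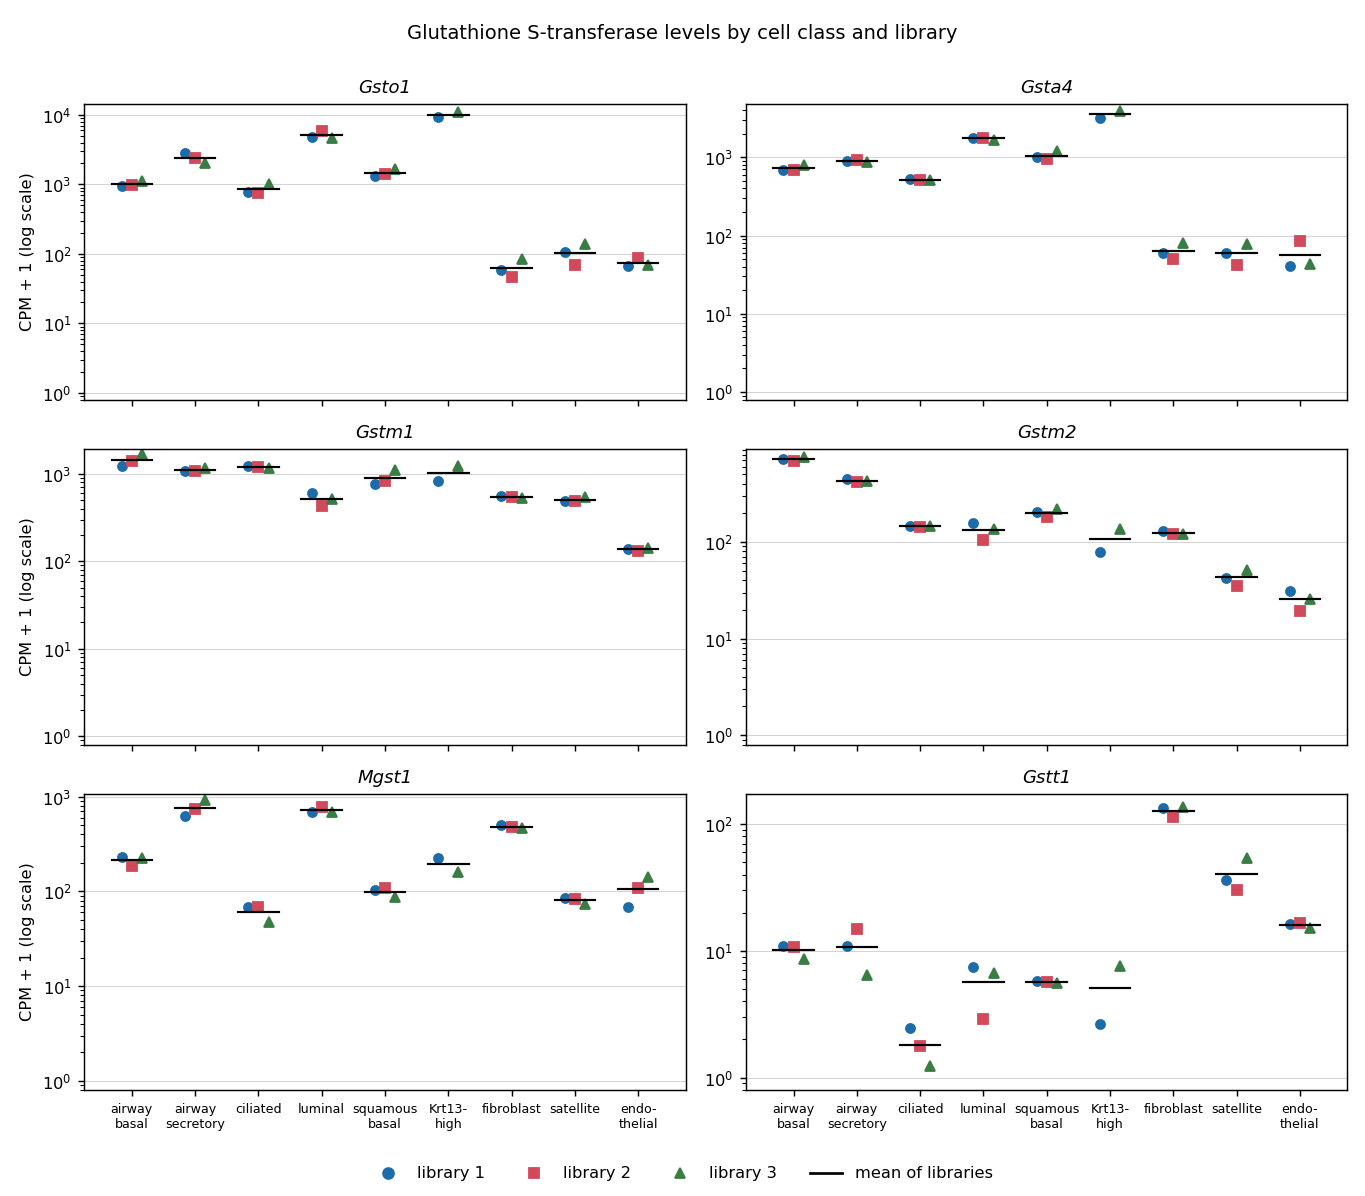
CPM + 1 on a log axis of 6 soluble and membrane-bound glutathione S-transferase genes in 9 cell classes. Points are libraries (2 for Krt13-high cells) and lines their mean. Gsto1 and Gsta4 peak in Krt13-high cells and then luminal cells, Gstm2 in airway basal cells, and Gstt1 in fibroblasts at 112 to 136 CPM.

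Luminal cells were compared with airway secretory cells, since both gates leave out cells with Trp63, a basal marker. The gates differ in other genes, the luminal gate being set on Muc4 and Krt8. The part of the gate genes in the differences was not tested. Luminal cells carried far less Sult1d1, less of the mu class genes Gstm1 and Gstm2 and less Ugt2b34, Sult1c1 and Sult1c2, and more Gsto1, Gsta4 and Akr1c18. Of the 81 members 3 were higher and 8 lower, with 47 tested, against 3.91% higher and 3.82% lower over all genes. With the library as a block 6 were higher and 11 lower, against 5.42% higher and 5.26% lower over all genes in that fit. The median was −0.37 over the tested members, −0.35 with genes at 0 UMIs at their bound, and 0 over all genes.

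Sult1d1 was at 43.9, 46.2 and 68.8 CPM in luminal cells, 6.08% to 9.86% of the secretory level (−3.99 ± 0.40, adjusted p = 1.5e-07). In thinned cells 7.46%, 10.3% and 9.26% of luminal and 67.1%, 63.4% and 65.7% of secretory cells had a Sult1d1 UMI. Gstm2 was at 155, 103 and 134 CPM against 449, 415 and 425 CPM (−1.98 ± 0.18), and Gstm1 at 603, 423 and 512 against 1077, 1087 and 1172 CPM (−1.38 ± 0.17). The luminal values lay below the secretory ones in every library for all 3 genes.

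Ugt2b34 had 2 UMIs in luminal cells, so that the secretory level was 32.6 times higher with a 95% counting interval of 8.75 to 273. Sult1c2 also had 2, with a ratio of 27.0 (7.20 to 227). Gsto1 was higher in luminal cells at 4864, 5779.7 and 4599 CPM (0.79 ± 0.21, adjusted p = 0.020), and Akr1c18 at 97.2, 106 and 181 against 22.0, 34.2 and 64.6 CPM (1.45 ± 0.35). Gsto2 was at 54.4, 108 and 48.2 CPM in luminal against 16.2, 32.3 and 3.94 CPM in secretory cells, with no overlap, yet passed only with the library as a block (1.83 ± 0.59 without it, adjusted p = 0.057, and 0.00022 with it). So did Akr1e1 (0.44 ± 0.17, 0.13 and 0.042), Gsta3 (−0.64 ± 0.23, 0.10 and 0.030), Sult1a1 (−0.83 ± 0.41, 0.27 and 0.012) and Akr1c14 (−2.81 ± 1.52, 0.33 and 0.019).

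Sult1b1 was not tested here, because Muc4, which set the luminal gate, was known from earlier results of these cells to be co-expressed with it. As a description, it was at 135, 99.0 and 194 CPM in luminal and 29.2, 29.5 and 38.5 CPM in secretory cells. Of epithelial cells with an Nkx2-1 UMI, 47.0%, 37.7% and 41.2% had Sult1d1, against 18.6%, 13.8% and 16.9% of those without. For Sult1b1 the shares were 2.54%, 2.48% and 4.10% against 5.85%, 6.53% and 8.46%, with 0.396%, 0 and 0.478% in fibroblasts. Of epithelial cells with a Sult1b1 UMI, 34.1%, 21.8% and 33.2% also had Sult1d1, against 32.3%, 23.7% and 28.2% of the other epithelial cells. The 2 genes thus differed in level between classes but were not kept apart over epithelial cells as a whole. The Sult1d1 and Sult1b1 UMIs behind these shares were read after thinning each cell to 5000 UMIs, with cells under that depth dropped. Nkx2-1 was read at full depth, so depth still enters that split. Nkx2-1 is also a gate gene of several classes, so the split does not stand apart from the class comparisons.

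Without library 1, 5 members passed in place of 11, and the calls of Akr1c18 (1.29), Gsta4 (0.71), Gsto1 (0.98), Sult1c1 (−2.87) and Sult1c2 (−5.10) ended. Gsta4 (0.70) was also lost without library 3 and Gsto1 (0.68) without library 2. With cells thinned to 5000 UMIs luminal cells rested on library 3 alone. The calls of Gsto1 (1.23), Gsta4 (1.10), Akr1a1 (−0.92) and Ugt2b34 (−9.46, from few counts) then ended. In library 2 luminal cells held 17.9 CPM of Sult1c1, against 2.93 CPM in library 1 and no UMI in library 3. DESeq2 did not call Sult1c1 (−3.22, adjusted p = 0.22) or Sult1c2 (−4.82, 0.14).

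**Figure D4:**
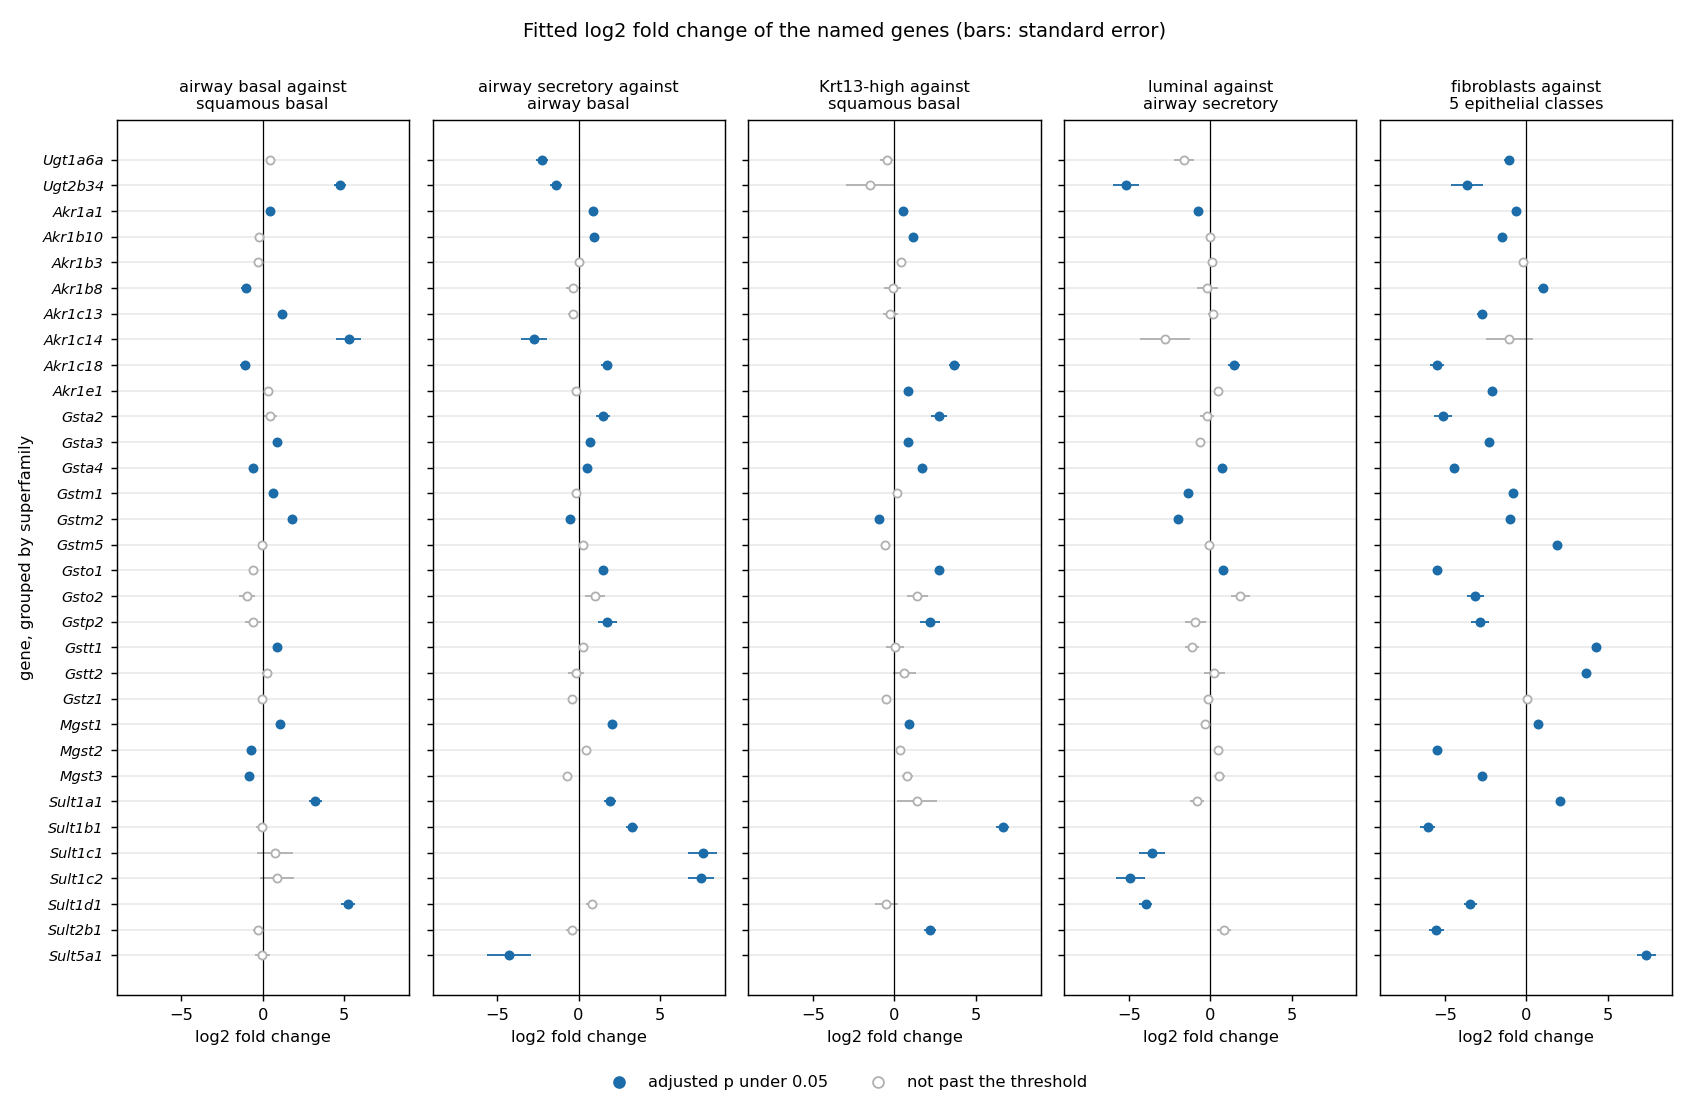
Fitted log2 fold change with its standard error for the 32 named genes in 5 comparisons. Filled points passed an adjusted p under 0.05 and estimates with a standard error of 3 or more, and Sult1b1 in luminal cells, which was not tested, are left out. Sult1d1 lies far to the right for airway against squamous basal cells and far to the left for luminal against secretory cells, while Gsto1 lies to the right in 3 panels and far to the left in fibroblasts.

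Fibroblasts were set against the mean of 5 epithelial classes (airway basal, airway secretory, luminal, squamous basal and Krt13-high cells). They carried more of the theta class genes Gstt1 and Gstt2, of Gstm5 and of Sult5a1, and far less Gsto1, Gsta4, Mgst2, Akr1c18, Sult1b1 and Sult2b1. Sult1b1 was tested here although the mean takes in luminal cells, whose gate gene Muc4 was known to be co-expressed with it. The counts were 11 members higher and 27 lower of 81, with 48 tested, and 35.9% of all genes were higher and 21.6% lower. The members' median was −1.87 and that of all genes 0.20. The calls were as many with the library as a block, where 38.1% of all genes were higher and 23.3% lower.

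Gstt1, whose product acts on small halogenated compounds, was at 133, 112 and 136 CPM in fibroblasts and at most 13.8 CPM in any epithelial class of any library (4.31 ± 0.17, adjusted p = 7.1e-18). Gstt2, of the same cluster on chromosome 10, was at 32.2, 28.4 and 28.1 CPM and at most 4.97 CPM in epithelium (3.66 ± 0.23). Squamous basal cells held 3.36% to 4.17% of the fibroblast level of Gstt1 and, of 2 fibroblast markers, 0.0293% to 0.496% of that of Lum and 1.22% to 2.03% of that of Dcn. Gstt2 was higher still in endothelial cells, at 47.2, 71.1 and 74.2 CPM.

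Sult5a1 was at 54.3, 40.7 and 21.5 CPM in fibroblasts. Its 1141 UMIs there compared with 1 in airway secretory cells, a ratio of 264 (95% counting interval 47.4 to 10453), and with none in luminal cells, at least 66.0-fold higher against a floor of 3 counts over the class. Airway basal cells held 5.18, 3.48 and 2.78 CPM, where Dcn stood at 5.08% to 8.30% of its fibroblast level and Lum at 0.0363% to 0.241%. The part of carry-over in this was not tested. Gstm5, of the same mu class cluster as Gstm1, was at 79.5, 76.1 and 62.7 CPM in fibroblasts and 19.4, 21.7 and 19.5 CPM in airway basal cells (1.87 ± 0.10). Sult1e1, the estrogen sulfotransferase, was singled out after its values were seen, as the third of the neighbours on chromosome 5: it was at 9.76, 0.334 and 3.78 CPM in fibroblasts, with 183 UMIs there and 1 each in airway secretory and luminal cells, and its libraries varied widely.

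Mgst1 was an exception among the abundant transferases, at 504, 477 and 468 CPM in fibroblasts, above airway basal and squamous basal cells but below airway secretory and luminal cells (0.70 ± 0.14 against the mean). Gsto1 fell to 57.6, 46.1 and 84.2 CPM (−5.51 ± 0.25) and Gsta4 to 58.1, 49.1 and 78.7 CPM (−4.43 ± 0.21). These low values were 3.28% to 5.07% and 5.14% to 6.56% of the squamous basal levels, where Krt5, an epithelial keratin, stood at 0.788% to 2.20%. The part of carry-over between cells in them was not tested. Sult1a1 was called higher in fibroblasts (2.09 ± 0.28) against the mean of log levels, but its 37.5, 32.0 and 17.98 CPM overlapped with airway secretory cells at 34.4, 36.0 and 18.7 CPM. Leaving out library 1 ended the call of Akr1b8 (1.00), and leaving out library 3 those of Ugt1a6a (−0.82) and Ugt2b34 (−2.40). Stricter gates also ended that of Ugt2b34 (−2.44, adjusted p = 1.0). With cells thinned to 5000 UMIs, luminal and Krt13-high cells rested on library 3 alone. Calls then ended for Sult2b1 (−5.15), Sult1d1 (−3.23), Gsta2 (−3.71), Ugt2b34 (−3.39), Gstp2 (−1.53), Akr1c13 (−1.45), Ugt1a6a (−1.17) and Akr1b8 (0.77), all with their direction kept.

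Levels in the other classes are given with no test. Ciliated cells carried Akr1b8, an aldose reductase-like enzyme, at 107, 105 and 26.3 CPM, with at most 18.2 CPM in any library of the other classes plotted, and Sult1d1 at 925, 584 and 299.9 CPM, a range that takes in the airway secretory levels. Muscle satellite cells carried Akr1b3, aldose reductase itself, at 249.9, 205 and 358 CPM, against 40.6 to 89.5 CPM in the epithelial classes. Endothelial cells led in Sult1a1 at 235, 223 and 201 CPM, and they held Akr1c14 at 72.4, 77.3 and 17.7 CPM, which overlapped with airway basal cells. Gstz1, an enzyme of tyrosine breakdown, was highest in ciliated cells at 74.6, 79.5 and 64.6 CPM.

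**Figure D5:**
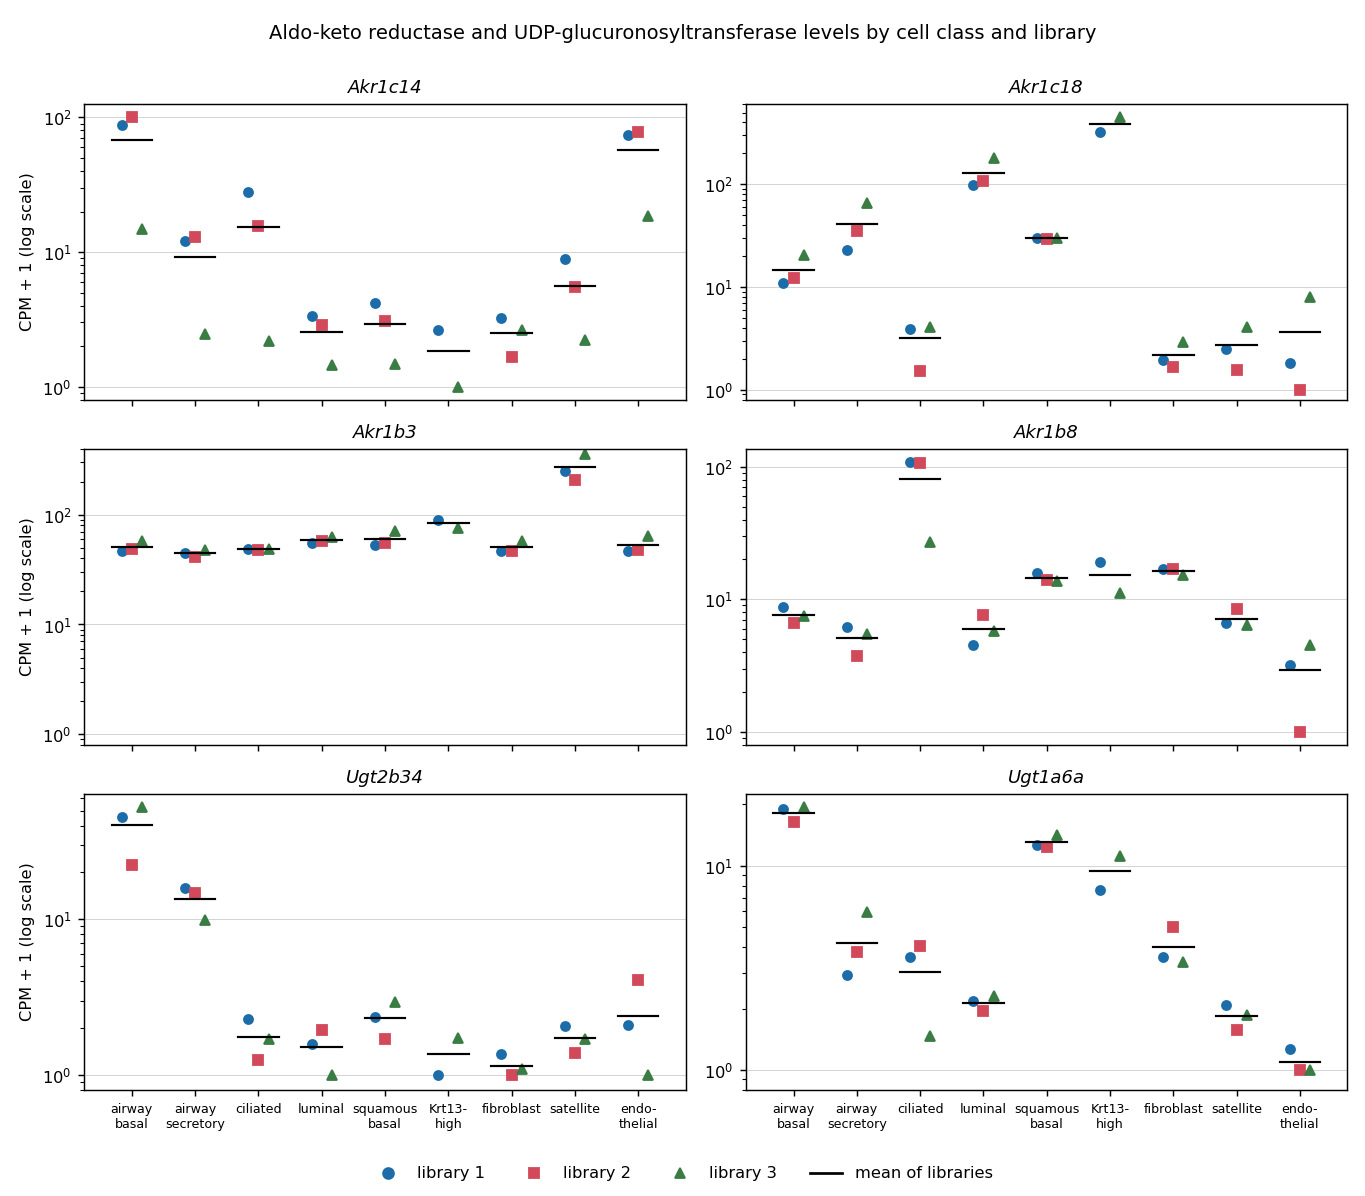
CPM + 1 on a log axis of 4 aldo-keto reductase and 2 UDP-glucuronosyltransferase genes in 9 cell classes. Points are libraries (2 for Krt13-high cells) and lines their mean. Akr1c14 is lowest in library 3 in all epithelial classes with 3 libraries, Akr1c18 peaks in Krt13-high cells, Akr1b3 in satellite cells, Akr1b8 in ciliated cells and Ugt2b34 in airway basal cells.

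The study divides cells by Lrig1 itself. Cells with at least 1 Lrig1 UMI (Lrig1+) were therefore compared with cells with none (Lrig1−) within classes. The sums entered 1 fit, which did not pair the Lrig1+ and Lrig1− sums of the same class and library. No member was called in either direction, with 43 tested, and over all genes 0.0494% were higher and 0.0776% lower in Lrig1+ cells. At an unadjusted p under 0.05 there were 5 members, and DESeq2 called 0. With the library as a block, where 0.529% of all genes were higher and 0.755% lower, 3 members passed: Sult1b1 was higher (log2 fold change without the block 0.48 ± 0.21, adjusted p = 0.43, and 0.047 with it), and Mgst3 (−0.24 ± 0.10, 0.40 and 0.020) and Sult5a1 (−0.72 ± 0.27, 0.35 and 0.030) were lower. Lrig1+ cells were deeper than Lrig1− cells in every class and library, for example with medians of 17219 against 14731 UMIs in airway basal cells of library 1. The part of depth in these differences was not tested. Limiting both groups to cells of 8000 to 25000 UMIs, in the fit without the block, again gave 0 calls. That fit gave 0 calls with all cells too, so it cannot show the part of depth in the 3 calls made with the block. Whether the Lrig1 difference itself differed between airway and squamous basal cells was also tested, and 0 of 44 members and 0% of all genes passed. There 1 member had an unadjusted p under 0.05, Sult1d1 at 1.06 ± 0.47 (unadjusted p = 0.032, adjusted p = 1.0), named after its value was seen.

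Other genes of the same pathways were counted in the lists named in the methods. Their counts stand beside shares over all genes of 8.91% higher and 7.33% lower for airway against squamous basal, 8.53% and 14.4% for secretory against airway basal, 6.26% and 14.4% for Krt13-high against squamous basal, 3.91% and 3.82% for luminal against secretory cells, and 35.9% and 21.6% for fibroblasts. Genes that supply the co-substrates, 16 in number and all tested, included 1 higher and 4 lower in airway than in squamous basal cells. Papss2, which makes the sulfate donor, was higher (0.89), and the cystine importer Slc7a11 (−2.42), the glutathione synthesis genes Gss (−1.11) and Gclm (−0.43) and Ugdh (−0.71), which makes the glucuronic acid donor, were lower. In secretory against basal airway cells 3 were higher and 3 lower, in Krt13-high against squamous basal cells 0 and 4, in luminal against secretory cells 1 and 2 and in fibroblasts 5 and 7. The 5 higher in fibroblasts are 31.2% of the list, under the share over all genes. Slc7a11 was higher in luminal than in secretory cells by 2.85, and Papss2 was higher in fibroblasts by 1.87.

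Among 23 other conjugating and reducing enzymes (21 tested), airway basal cells had 3 higher, Ephx2 (2.05), Hnmt (1.67) and Ephx1 (0.85), and 3 lower, Nqo1 (−1.44), Hpgds (−1.30) and Ptges (−1.05). Secretory cells had 6 higher and 2 lower, Krt13-high cells 5 and 3, luminal cells 2 and 2, the higher ones being Nqo1 (2.27) and Hpgds (2.13), and fibroblasts 6 and 6, the higher ones 28.6% of those tested and again under the share over all genes. The methyltransferases Nnmt (9.30) and Inmt (9.07) led in fibroblasts, and the carbonyl reductase Cbr2 (−5.54) fell furthest there.

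Of the sensors and regulators, such as Nfe2l2, Keap1 and Ahr, 14 were listed. Of 14 listed and 13 tested, 0 were called between the 2 basal classes by edgeR (2 at an unadjusted p under 0.05 and 1 by DESeq2), 0 higher and 2 lower in secretory and in Krt13-high cells, 0 in luminal cells (1 at an unadjusted p under 0.05 and 0 by DESeq2), and 4 higher and 1 lower in fibroblasts. Conjugate efflux pumps (8 of 10 tested) gave 0 higher and 2 lower in airway basal, 3 and 1 in secretory, 2 and 2 in Krt13-high, 0 and 1 in luminal cells and 4 and 3 in fibroblasts, where Abcb1a (8.99) and Abcg2 (7.25) were higher and Abcc3 (−5.52) lower. Of the 2 genes found for the removal of sulfate or glucuronic acid, Arsa and Gusb, 0 were called in airway against squamous basal cells by edgeR (0 at an unadjusted p under 0.05 and 0 by DESeq2), Gusb was higher (1.30 less the median of all genes) and Arsa lower (−0.66) in secretory cells, Arsa was lower in Krt13-high cells (−1.91 less the median), Gusb was lower in luminal cells (−0.99), and both were higher in fibroblasts. In Lrig1+ against Lrig1− cells edgeR called 0 genes of these lists, with 1 gene at an unadjusted p under 0.05 in each list except the last, which had 0, and DESeq2 called 1 of the sensors and 0 of the others. For the difference of the Lrig1 effect between the basal classes all these counts were 0.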

How the data were processed

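Cells were processed by the authors with Cell Ranger 8.0.1 on the mm39 genome build, per the labels, and the deposited matrices hold raw UMI counts per gene and barcode. From these counts, barcodes were kept if they held 500 to 8000 genes, between 1000 and 40000 UMIs, and no more than 8% of UMIs from mitochondria, and simulated-doublet neighbours were removed at 0.4% per 1000 barcodes (1030, 326 and 3495 cells). Classes were set by marker UMI gates, and a cell meeting more than 1 gate was left out. To compare classes, counts were summed per library and class, and the library was the replicate. For Lrig1 they were summed per library, class and Lrig1 state, with 1 state term over the classes. The classes of a library, and the Lrig1+ and Lrig1− sums of the same class and library, entered there as if independent. The block takes up the library but not the pairing within a class, so those p-values rest on sums that are not independent. Sums were compared with edgeR 4.0.16 in R 4.3.3 (TMM, filterByExpr, quasi-likelihood test, two-sided, Benjamini-Hochberg over all genes, 0.05), with all classes in 1 fit and without gate genes. DESeq2 1.42.0 was an alternative, as were RLE scaling, no filter, only the classes compared, each library left out, stricter gates, thinning to 5000 UMIs and no doublet removal. The fits were also run on simulated counts, drawn independently for each class and library with the same dispersion for every gene. That run left out the pairing of classes given below, so it says nothing of the error under pairing.

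Genes named in the text have a mean of at least 50 CPM in a class, or are among up to 6 called members per direction and comparison with at least 10 CPM in 1 class, exceptions being stated. Members and lists were chosen with earlier results of these data known. The lists were co-substrate supply, other conjugation and reduction enzymes, sensors and regulators, conjugate efflux pumps, and sulfatase and glucuronidase reversal. Classes of 1 library come from the same pooled animals, which pairs them. Deviations of paired classes correlated at 0.40, 0.53 and 0.74 for airway and squamous basal cells, 0.22, 0.23 and 0.47 for secretory and airway basal cells, and 0.084, 0.19 and 0.35 for luminal and secretory cells in libraries 1 to 3, and at 0.39 for Krt13-high and squamous basal cells. Sexes were pooled and cannot be separated. The GENCODE annotation of GRCm39 gave gene positions and, by its Ensembl canonical transcripts, promoters, with all 81 members matched.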

Additional observations from a re-analysis of the deposited data

How the results depend on the processing

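The counts of members called moved by over 1.5 times under 3 kinds of alternative. Thinning each cell to 5000 UMIs before gating left 19, 8 and 46 luminal, 12, 4 and 32 Krt13-high and 53, 16 and 64 secretory cells, so that under the minimum of 20 cells luminal and Krt13-high cells rest on library 3 alone and secretory cells on libraries 1 and 3. A lone library is assumed to vary like the other classes, and for comparisons with these 3 classes the effects of depth and of fewer libraries cannot be told apart. Airway basal (261, 117 and 1398) and squamous basal cells (440, 239 and 2011) kept all 3 libraries, in a fit that shares its spread over all classes. Thinning gave 12 members for airway against squamous basal, 10 for secretory against airway basal, 7 for Krt13-high against squamous basal, 5 for luminal against secretory cells and 21 for fibroblasts. On these fewer libraries the sign turned for the log2 fold changes of Gstp2 (−0.058) and Ugt2b34 (0.17) in secretory and of Gstp2 (−0.26) and Mgst1 (−1.94) in Krt13-high cells. The replicate block gave 17 for luminal against secretory cells and 3 for Lrig1, and changed the other calls named in the text beside their values. Leaving out 1 library gave ranges of 9 to 18, 10 to 20, 10 to 16, 5 to 12, 34 to 37, 0 to 0 and 0 to 0 in the order of the text. RLE, no filter, the compared classes alone, stricter gates, no doublet removal, DESeq2 and, added after the data were seen, the wider Krt13 gate and cells of 8000 to 25000 UMIs, wherever each was run, kept every count within 1.5 times. Of 977 values for 84 named log2 fold changes, 867 kept direction and call, 106 lost the call and 4 reversed. Shares over all genes are not given for the thinned fits or those without a library. A loss of calls over all genes therefore cannot be told from a loss particular to the members.

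The limits are few cells in the secretory, luminal and Krt13-high classes, 3 libraries of 1 condition and 3′ ends that near-identical paralogs share. Markers of 1 class were also counted at low levels in others, such as Krt5 in fibroblasts at 0.788% to 2.20% of the squamous basal level. The source of these counts was not tested.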

Other observations

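Some members differed between libraries in the same way over several classes. Akr1c14 was at 86.9, 99.5 and 13.8 CPM in airway basal, 26.9, 14.7 and 1.18 CPM in ciliated and 72.4, 77.3 and 17.7 CPM in endothelial cells, lowest in library 3 each time. Gsto2 was highest in library 2 in airway basal (6.98, 17.8 and 5.09 CPM), squamous basal (12.8, 32.4 and 9.18 CPM) and luminal cells (54.4, 108 and 48.2 CPM). Sult1a1 was lowest in library 3 in airway basal, secretory, luminal and endothelial cells and in fibroblasts. Akr1c18 went the other way in airway basal (10.0, 11.3 and 19.7 CPM), secretory (22.0, 34.2 and 64.6 CPM) and luminal cells (97.2, 106 and 181 CPM), highest in library 3. Ciliated cells of library 3 held less Sult1d1 (925, 584 and 299.9 CPM) and less Akr1b8 (107, 105 and 26.3 CPM). These were noticed after the values were seen and no difference between libraries was tested. Each library is a separate pool, so the animals and the handling of a library cannot be told apart.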
